A study of Mus musculus with 24 samples.

Results

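Tumours that overexpressed the microRNA miR-21-5p (OE) were set against tumours carrying the empty vector (NC), all of them unirradiated. The comparison took 12 of the 24 tumours in the series, chosen by the letters in each tumour's coded identifier, where ES and EO stand for OE and S and O for NC. All tumours grew from mouse squamous carcinoma cells of the line SCC7, placed under the flank skin of female C3H mice 6 to 8 weeks old, with about 1000000 cells per mouse and treatment from a volume near 300 cubic mm. The 6 OE tumours were 3 sham tumours and 3 given olaparib alone, and the 6 NC tumours were divided in the same way. Olaparib blocks the PARP enzymes that act at DNA breaks and was injected into the peritoneum at 50 mg/kg, on a schedule the labels set relative to irradiation. The other 12 tumours received X-rays, 8 Gy on each of 3 days, with or without olaparib. The series is about whether miR-21-5p activates alternative end joining, a repair of DNA breaks that makes errors, and makes tumours resist radiation. The labels do not say whether either cell line is 1 clone or a pool, nor what promoter drives the microRNA. The 6 tumours of a line replicate tumours and not the making of the line. An effect of miR-21-5p therefore cannot be told apart from other differences between the OE and NC lines. RNA came from whole tumours, which also hold host cells, so fewer cells of a type and less RNA per cell cannot be told apart in any value below.

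The written labels and the coded letters conflict, and every result below follows the letters. Of these 12 tumours both give the same group for 2. They agree on the cell line for 7 tumours (4 OE and 3 NC) and differ for 5, and 4 tumours are written as irradiated. Cdkn1a, a p53 target that radiation induces, lay at 184 to 342 CPM in these 12 tumours (reads of a gene per 1000000 counted, scaled by the TMM method) and at 332 to 765 CPM in the 12 whose letters include I, for irradiation. That range bears on radiation and not on the cell line. When the cell line was taken from the written label for the same 12 tumours, 0 genes passed with edgeR (1122 at an unadjusted p below 0.05) and 2 with DESeq2.

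Totals ran from 37727884 to 39166017 counted reads per tumour, and single tumours are named below by their coded identifier. S-761, an NC sham tumour, stood apart: its 10 most abundant genes took 7.3% of reads, against 4.95% to 5.53% in the other 11, and it received the lowest quality weight, 0.162. Several markers of squamous epithelium were low. Krt5 and Krt14, keratins of basal squamous cells, averaged 1.62 and 1.71 CPM in OE and 7.04 and 8.88 CPM in NC tumours, and Trp63, their master regulator, 0.446 and 0.368 CPM. The whole list of squamous basal markers summed to 682 to 824 CPM in OE and 663 to 853 CPM in NC tumours, and keratinocyte differentiation markers to 9.44 to 56.6 and 14.5 to 167 CPM, highest in S-761. Krt8 and Krt18, keratins of simple epithelium, had medians of 514 and 339 CPM in OE and 757 and 515 CPM in NC tumours. Principal components were taken from the 2000 most variable genes. On component 1 (33.2% of the variance) OE and NC tumours overlapped, at -29 to 37.39 and -42.55 to 55.08. On component 2 (16.3%) the OE tumours scored -27.2 to 6.21 and the NC tumours 6.98 to 37.1. The narrow gap there lay between ES-741 at 6.21 and S-758 at 6.98. OE and NC tumours also overlapped on components 3 (13%) and 4 (9.14%).

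MicroRNAs are short RNAs that guide an Argonaute protein to messenger RNAs carrying a match to the microRNA's seed, usually in the 3' untranslated region, after which the message is destabilised or translated less. miR-21-5p is abundant in many carcinomas and is known for targeting tumour suppressors and inhibitors of growth signalling and of matrix proteases. Its gene lies in the last part of the Vmp1 locus, and the mature microRNA itself was not analysed here. The mature mouse sequence (RefSeq, GRCm38.p6, chr11:86584120-86584141, minus strand) is shown first, with its seed, bases 2 to 8, in capitals. Below it stand the sites of 5 targets named in the literature (GENCODE transcripts, GRCm38), with the bases that pair with the seed and the A that follows in capitals. They are shown because the levels of these 5 genes are given below.
mmu-miR-21a-5p: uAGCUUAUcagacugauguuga
Pdcd4 (chr19:53929418-53929439, plus strand): gtgtgggtgttctgATAAGCTA
Timp3 (chr10:86348213-86348234, plus strand): tttttgagctttcaATAAGCTA
Reck (chr4:43944393-43944414, plus strand): ttttacagtttgaaATAAGCTA
Spry1 (chr3:37643859-37643880, plus strand): atgtaagtgcttaaATAAGCTA
Spry2 (chr14:105892498-105892519, minus strand): gagacccacattgcATAAGCTA

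In OE tumours 14 genes were higher and 13 lower than in NC tumours, out of 15336 tested (edgeR quasi-likelihood F-test with olaparib as a covariate, Benjamini-Hochberg adjusted p below 0.05, which is what passing means below unless another tool is named). That is 0.176% of the genes tested, with 0.0913% higher and 0.0848% lower, and 1941 genes (12.7%) had an unadjusted p below 0.05. DESeq2 called 409 genes (2.67%, with 1.18% higher and 1.49% lower) and limma voom with sample quality weights, called voom below, 544 (3.55%, with 1.59% higher and 1.96% lower). For each of the 27 genes all 6 OE tumours lay on 1 side of all 6 NC tumours, which was so for 275 genes (1.79%) in all, 149 with OE higher (0.972%) and 126 with OE lower (0.822%). The genes that rose include components of connective tissue matrix (Dpt, Cilp), a matricellular growth regulator (Ccn3) and neural signalling genes (Nos1, Ksr2). Those that fell include Crabp1, which binds retinoic acid, the elastic fibre protein Fbln5, the cytokine Clcf1 and Polm, a DNA polymerase of end joining. The median log2 fold change of all tested genes was -0.01.

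**Figure D1:**
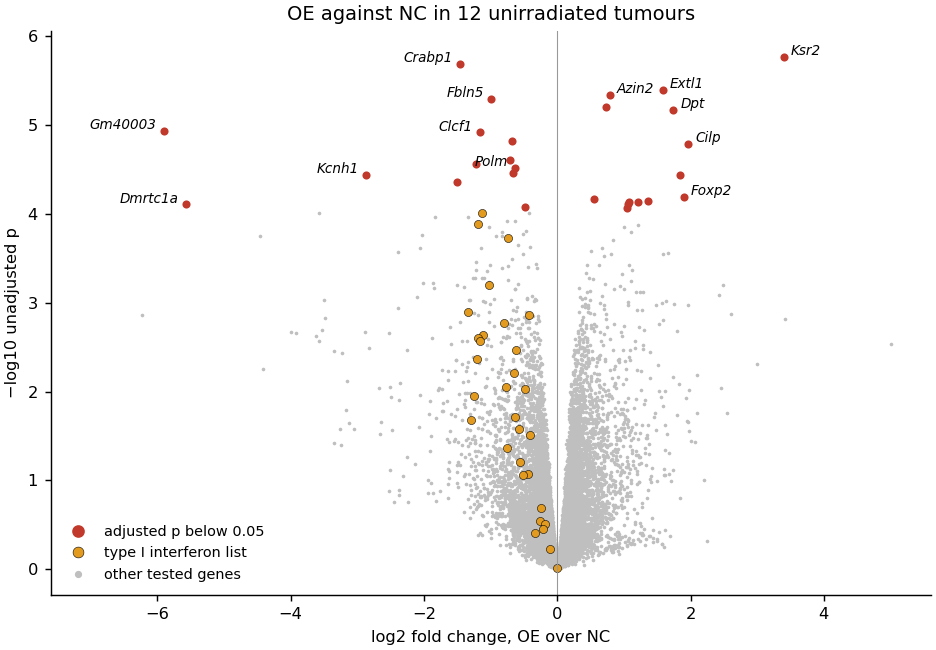
Log2 fold change of OE against NC in the 12 unirradiated tumours (horizontal) and -log10 of the unadjusted p from edgeR (vertical), 1 point per tested gene. Red points are the 27 genes that passed, 14 to the right and 13 to the left, and orange points are the 31 type I interferon response genes, all at or left of 0.

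Of the genes that rose, 4 encode proteins of the extracellular matrix or an enzyme that makes its sugar chains. Dpt, dermatopontin, a small protein of the dermal matrix (Entrez 56429, chr1:164796663-164824274, mm10), lay between 87.2 and 172 CPM in OE tumours (median 124) and between 19.9 and 62.7 CPM in NC tumours (median 36.1). No OE tumour overlapped an NC tumour, and the log2 fold change was 1.74 ± 0.24 (SE, n = 6 and 6, edgeR adjusted p = 0.0147). Cilp, a matrix protein of cartilage that also occurs in fibrotic tissue (Entrez 214425, chr9:65265180-65280614), ranged from 70.2 to 175 CPM in OE (median 78.3) and from 11.4 to 35.7 CPM in NC (median 26.6). Its lowest OE tumour stood above the highest NC tumour, with a log2 difference of 1.96 ± 0.30 (edgeR adjusted p = 0.0226). Ccn3, a secreted matricellular regulator of growth (Entrez 18133, chr15:54745910-54753762), was at 13.6 to 17.3 CPM in OE (median 15.5) and 8.46 to 10.5 CPM in NC (median 9.18). Both ranges were narrow and apart, and the difference was 0.73 ± 0.10 (edgeR adjusted p = 0.0147). Extl1, a glycosyltransferase that elongates heparan sulfate (Entrez 56219, chr4:134356373-134372547), was a low gene at 2.17 to 3.94 CPM in OE (median 3.17) and 0.812 to 1.25 CPM in NC (median 1.02). It rose by 1.58 ± 0.21 on the log2 scale (edgeR adjusted p = 0.0147).

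Signalling genes also rose, several of them from low levels. Ksr2, a scaffold of the MAP kinase cascade expressed mainly in brain (Entrez 333050, chr5:117414002-117767996), lay at 0.639 to 1.23 CPM in OE tumours (median 0.912) and 0.026 to 0.178 CPM in NC tumours (median 0.069). The 2 ranges did not meet, and its log2 fold change of 3.39 ± 0.41 was the largest of the 14 genes that rose (edgeR adjusted p = 0.0147). Nos1, the neuronal nitric oxide synthase (Entrez 18125, chr5:117866839-117958840), was at 3.10 to 8.11 CPM in OE (median 4.25) and 0.832 to 1.95 CPM in NC (median 1.08). It rose by 1.83 ± 0.30 (edgeR adjusted p = 0.0331), with every OE tumour above every NC tumour. Foxp2, a forkhead transcription factor, had a median of 0.723 CPM in OE and 0.219 CPM in NC and a log2 difference of 1.89 ± 0.33 (edgeR adjusted p = 0.0478). Gnb4, a beta subunit of heterotrimeric G proteins, was the most abundant gene that rose, at 165 to 195 CPM against 96.4 to 140 CPM, and its difference was small at 0.54 ± 0.09 (edgeR adjusted p = 0.0478).

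The remaining genes that rose have scattered roles. Azin2, an inhibitor of antizyme that raises polyamine levels (Entrez 242669, chr4:128930233-128962456), was at 25.2 to 37.8 CPM in OE (median 29.97) and 16.4 to 19.4 CPM in NC (median 17.5), a difference of 0.78 ± 0.10 (edgeR adjusted p = 0.0147). All 6 OE tumours stood above the NC range. Reep1, which shapes the endoplasmic reticulum, rose by 1.21 ± 0.21, Pwwp3b, a PWWP domain gene on chromosome X, by 1.08 ± 0.19 and Ccdc141, a centrosomal protein gene, by 1.05 ± 0.19 (edgeR adjusted p from 0.0478 to 0.0482). The predicted genes Gm42346 and Gm14399 rose by 1.35 and 1.05.

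Among genes that fell, Crabp1 was the most abundant. Crabp1 binds retinoic acid in the cytoplasm and is strongly expressed in embryonic mesenchyme (Entrez 12903, chr9:54764748-54773110). It lay at 191 to 240 CPM in OE tumours (median 205) and 347 to 748 CPM in NC tumours (median 650). Every OE tumour was below every NC tumour, with a log2 difference of -1.47 ± 0.18 (edgeR adjusted p = 0.0147). Fbln5, fibulin 5, which organises elastic fibres (Entrez 23876, chr12:101746565-101819119), was at 21.8 to 37.3 CPM in OE (median 32.1) and 51.6 to 72.4 CPM in NC (median 56.6), a log2 difference of -0.99 ± 0.13 (edgeR adjusted p = 0.0147). So the matrix genes that passed did not all move the same way. Clcf1, a cytokine of the interleukin 6 family (Entrez 56708, chr19:4214238-4223505), was at 3.04 to 5.16 CPM in OE (median 4.28) and 7.51 to 11.1 CPM in NC (median 9.32), and fell by 1.17 on the log2 scale (SE 0.17, edgeR adjusted p = 0.0206). Car12, a membrane carbonic anhydrase induced by hypoxia in many tumours, was at 12.3 to 18.6 CPM in OE and 19.7 to 52.7 CPM in NC, with -1.21 ± 0.19 (edgeR adjusted p = 0.0324). Slfn4, a Schlafen gene of myeloid cells that interferon induces, was at 5.63 to 8.33 CPM in OE and 12.0 to 35.7 CPM in NC, with -1.51 ± 0.25 (edgeR adjusted p = 0.0376).

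Polm encodes DNA polymerase mu, which fills short gaps when broken ends are joined by the classical route (Entrez 54125, chr11:5827860-5838832). It lay at 15.4 to 21.5 CPM in OE tumours (median 20.1) and 27.1 to 34.6 CPM in NC tumours (median 29.2). All OE tumours were below all NC tumours, and the log2 fold change was -0.64 ± 0.10 (edgeR adjusted p = 0.033). Cavin3, a coat protein of caveolae, fell by 0.66 (133 to 240 against 262 to 373 CPM). Wwc1, also called KIBRA, an upstream regulator of the Hippo pathway, fell by 0.71, Mir100hg, the host transcript of a microRNA cluster, by 0.68 and Fmnl1, a formin of haematopoietic cells, by 0.48. Kcnh1, a voltage-gated potassium channel, was at 0.0512 to 0.303 CPM in OE and 0.702 to 2.25 CPM in NC, with -2.87 ± 0.47 (edgeR adjusted p = 0.0331). Of the predicted noncoding gene Gm40003, 1 read was counted over the 6 OE tumours and 99 over the 6 NC tumours, a ratio of NC to OE of 102 (95% counting interval 17.9 to 4060). Dmrtc1a had 3 reads in OE, all from ES-741, and 190 in NC (ratio 65.1, 95% counting interval 22.0 to 319), and its reads are uncertain because the gene has near-identical copies.

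**Figure D2:**
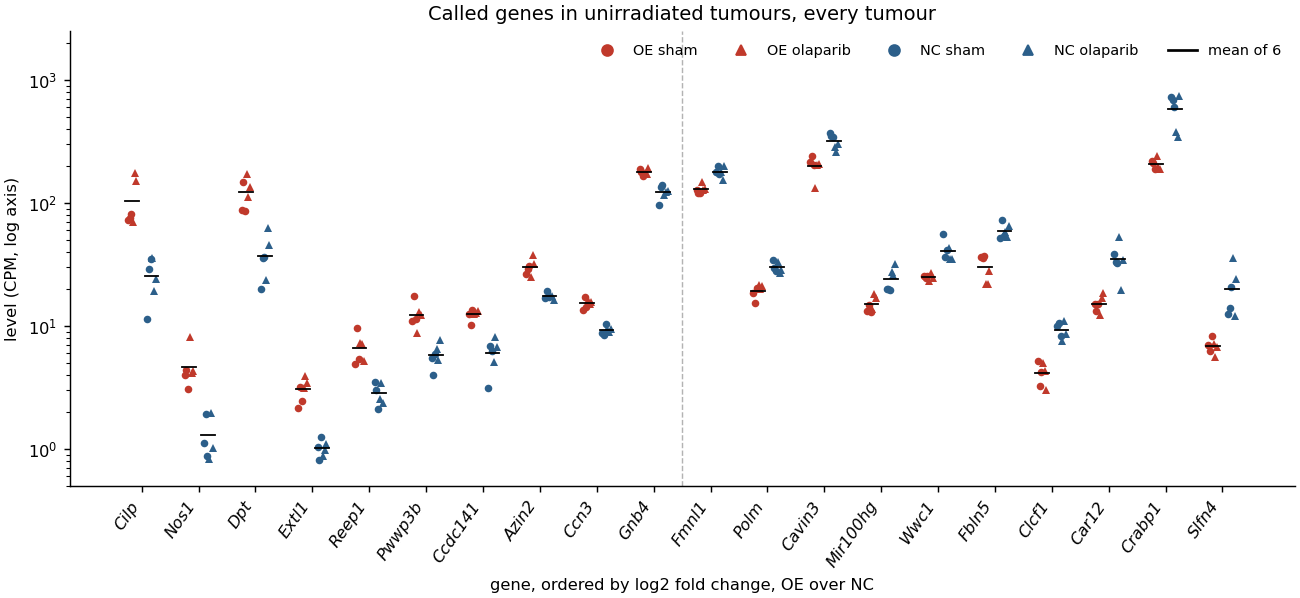
TMM-scaled CPM on a log10 axis for the 20 of the 27 genes with a named product and a mean of at least 1 CPM, 1 point per tumour (red OE, blue NC, circles sham, triangles olaparib) and a bar at the mean of 6. In every gene shown the OE points and the NC points form separate ranges, as with Crabp1 at 191 to 240 against 347 to 748 CPM.

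How well single genes held up differed. With each tumour left out in turn, Dpt, Extl1, Crabp1, Fbln5 and Ksr2 passed in 11 of 12 fits, Azin2 and Ccn3 in 10, Clcf1 in 7, Cilp and Mir100hg in 6, and the other 17 genes in 1 to 5. The count of genes that passed was 0 without EO-762 (1665 at an unadjusted p below 0.05) and 90 without EO-703. It was 5 without ES-706, 8 without ES-709 or EO-701, 9 without O-722, 11 without S-759, 12 without ES-741, 14 without S-758, 16 without O-723 and 45 without O-724. The direction of all 27 stayed the same in each of these fits. This was fixed in advance, because no OE tumour overlapped an NC tumour in any of them.

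Known targets of miR-21-5p lay on both sides of 0. Of 48 tested genes that the literature names as targets, 31 lay above 0 and 17 below, with a median log2 fold change of 0.09, and none passed with edgeR (5 had an unadjusted p below 0.05, 2 higher and 3 lower). Over all tested genes 12.7% had such an unadjusted p. DESeq2 and voom, which called 2.67% and 3.55% of all tested genes, each called 2 of the 48, Timp3 lower and Marcks higher. The median was -0.0067 without S-761 and -0.04 with the written cell line. Pdcd4, a translation inhibitor and tumour suppressor, was at 18.6 to 28.6 CPM in OE (median 22.3) and 16.4 to 34.8 CPM in NC (median 18.2), with overlapping ranges and a log2 difference of 0.10 ± 0.19 (edgeR adjusted p = 0.864). Timp3, an inhibitor of metalloproteinases, had the lowest value of the list. It lay at 176 to 676 CPM in OE (median 476) and 756 to 1354 CPM in NC (median 877), without overlap, at -1.11 ± 0.26, and did not pass with edgeR (adjusted p = 0.118). The Sprouty genes, which restrain growth factor signalling, were at -0.62 ± 0.34 for Spry1 and -0.34 ± 0.23 for Spry2, and Reck, a membrane inhibitor of metalloproteinases, was at -0.10 ± 0.19 (edgeR adjusted p from 0.476 to 0.861). Marcks, a substrate of protein kinase C, lay higher in every OE tumour (434 to 566 CPM) than in any NC tumour (296 to 412 CPM), at 0.37 ± 0.09 (edgeR adjusted p = 0.136). Of all tested genes 0.972% lay higher and 0.822% lower in OE without overlap. Vmp1, the gene in whose locus the microRNA lies, was at -0.12 ± 0.12 (edgeR adjusted p = 0.723). In the longest annotated 3' untranslated region of each gene 31 of the 48 held the seed match and 17, among them Marcks, did not. The median was 0.09 for those with a match and 0.12 for those without.

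Over all genes, those with a seed match had a slightly higher median than those without. A seed match, ATAAGCT on the strand of the transcript, was found in 1050 of the 13577 protein-coding genes that were tested and had an untranslated region to search (7.73%). Their median log2 fold change was 0.09, against -0.02 for the 12527 genes without a match. It was 0.11 for the 309 genes whose match is followed by an A and 0.08 for the rest. The 2 sets also differed in length, with a median untranslated region of 2750 bases against 1055. The 1921 genes without a match whose region was at least 2750 bases long had a median of 0.08, and the 525 genes with a match and that length had 0.13. In sham tumours the medians were 0.22 with a match and -0.03 without, and 0.20 for the long genes without a match. In olaparib tumours they were -0.03, -0.01 and -0.04. The difference between genes with and without a match was 0.109 with all 12 tumours and 0.0489 without S-761. Of the 1050 genes with a match 5 passed as higher and 1 as lower, and of the 12527 without a match 7 and 10. Among genes with the long region, 4 of the 525 with a match passed as higher and 0 as lower. For the 1921 without a match these counts were 2 and 2. Over all tested genes 0.176% passed.

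**Figure D3:**
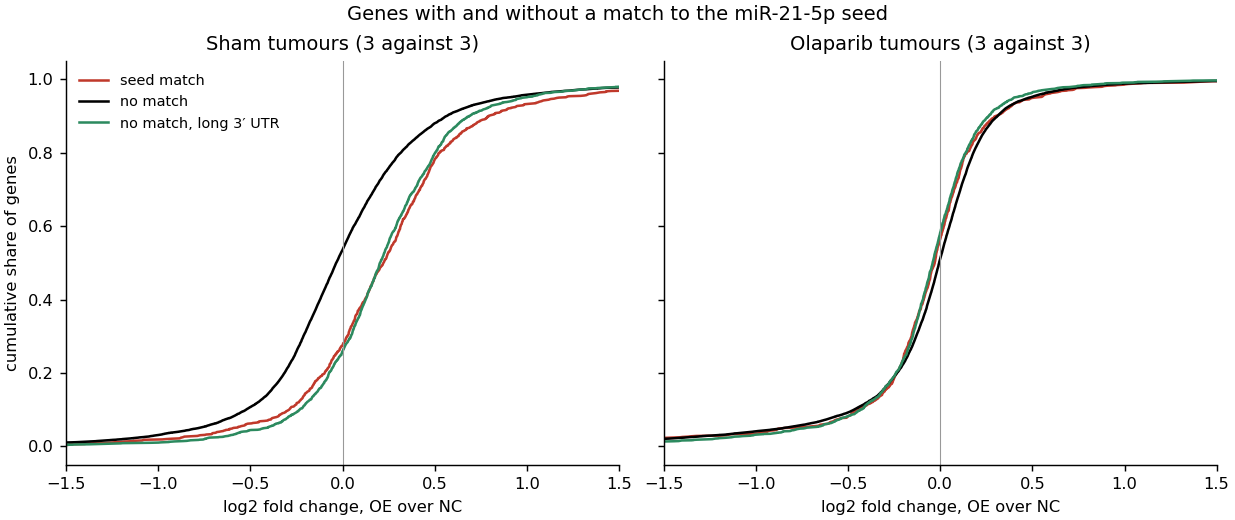
Cumulative share of genes (vertical) by log2 fold change of OE against NC (horizontal) in sham and in olaparib tumours, for genes with a match to the miR-21-5p seed, for all genes without and for genes without whose 3' untranslated region is long. In sham tumours the curve of matched genes lies to the right (median 0.22 against -0.03), beside that of long genes without a match (0.20), and in olaparib tumours the medians are -0.03, -0.01 and -0.04.

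Alternative end joining, the repair route in the study's title, showed no gene that passed with edgeR, while DESeq2 and voom each called 1 of 22, Hmces. This route joins ends through short homologies and uses polymerase theta (Polq), PARP1 and DNA ligase 3. Polq lay at 7.85 to 13.3 CPM in OE (median 11.9) and 9.24 to 13.5 CPM in NC (median 11.0), a log2 difference of 0.06 ± 0.15 (edgeR adjusted p = 0.902). Parp1 was at 123 to 137 CPM in OE (median 129) and 70.7 to 143 CPM in NC (median 130), at 0.09 ± 0.14 (edgeR adjusted p = 0.829). Lig3 was at 48.9 to 55.4 CPM in OE (median 49.9) and 31.2 to 54.1 CPM in NC (median 50.3), at 0.09 ± 0.12 (edgeR adjusted p = 0.783). For each of the 3 genes the ranges overlapped. Of the 22 members tested 11 lay above and 11 below 0, with a median of 0.01 (-0.06 without S-761 and -0.08 without O-723). The members with the lowest p were Hmces, which shields abasic sites, at -0.36 ± 0.11 (edgeR adjusted p = 0.196), and the checkpoint clamp genes Rad9a and Rhno1 at -0.26 ± 0.10 and -0.21 ± 0.09.

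The other repair and cell cycle lists held 1 gene that passed with edgeR, Polm, described above. In the mitosis list DESeq2 called 4 of 34 lower, namely Aurkb, Cdc20, Plk1 and Tpx2, and voom the first 3. In the replication list DESeq2 called 0 of 39 and voom 4 lower, among p53 targets both tools called Ccng1 higher and Gtse1 lower, and elsewhere in these lists they called Polm alone. In classical end joining 13 of 20 members lay below 0 (median -0.04), and Trp53bp1, which protects ends from resection, was at 0.24 ± 0.13 (edgeR adjusted p = 0.469). Homologous recombination had 22 of 30 below 0 (median -0.09), the Fanconi anaemia pathway 12 of 16 (-0.04), base excision repair 13 of 15 (-0.10) and the damage checkpoint 6 of 14 (median 0.02, and -0.04 without S-761). DNA replication genes lay below 0 in 37 of 39 (median -0.16), with 6 at an unadjusted p below 0.05, all lower. Mitosis genes lay below 0 in 22 of 34 (median -0.07), with 10 at an unadjusted p below 0.05, all lower. Over all tested genes 12.7% had such an unadjusted p in edgeR, in either direction, and 51.9% lay below 0. The kinase genes Aurkb (58.4 to 66.6 against 70.5 to 88.0 CPM) and Plk1 (73.2 to 89.7 against 91.3 to 107 CPM), with Cdc20, which activates the anaphase ubiquitin ligase (88.9 to 107 against 109 to 149 CPM), lay lower in every OE tumour than in any NC tumour. Their log2 fold changes were -0.32 ± 0.07, -0.30 ± 0.07 and -0.36 ± 0.09, and they did not pass with edgeR (adjusted p from 0.0867 to 0.136). These genes were named for their low p, and 0.822% of all tested genes lay lower in OE without overlap. Mki67, a marker of cycling cells, was at 384 to 446 CPM in OE and 355 to 461 CPM in NC, a difference of 0.01 ± 0.08 (edgeR adjusted p = 0.978). p53 targets had 21 of 36 members above 0 (median 0.05), with Cdkn1a at 0.23 ± 0.14 (edgeR adjusted p = 0.534).

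All 31 tested genes of the type I interferon response had a log2 fold change below 0, and none passed with edgeR. The list was chosen with earlier results of these data known. Its members were measured in the same 12 tumours and are not 31 independent values. Type I interferons induce antiviral genes through transcription factors that bind a GAAA-rich element in their promoters. Of all tested genes 51.9% were below 0, and 21 of the 31 members had an unadjusted p below 0.05, beside 12.7% of all tested genes. The median log2 fold change of the list was -0.63. Irf7, the factor that amplifies interferon production, lay at 52.8 to 131 CPM in OE (median 90.2) and 137 to 273 CPM in NC (median 214). Its ranges did not overlap, and it stood at -1.20 ± 0.22 on the log2 scale (edgeR adjusted p = 0.0561). Dhx58, a sensor of viral RNA, was at 24.1 to 61.4 CPM in OE (median 38.2) and 67.9 to 113 CPM in NC (median 77.1), again without overlap, at -1.12 ± 0.20 (edgeR adjusted p = 0.0502). Of all tested genes 0.822% lay lower in OE without overlap. Isg20, an exonuclease that degrades viral RNA, was at 14.4 to 22.3 CPM in OE (median 18.8) and 21.6 to 37.0 CPM in NC (median 30.7), with -0.73 ± 0.14 (edgeR adjusted p = 0.0604). Isg15, a ubiquitin-like modifier, averaged 37.2 ± 12.5 CPM in OE and 76.0 ± 20.1 CPM in NC (SD, n = 6 and 6), at -1.03 ± 0.23 (edgeR adjusted p = 0.106). Ifit3, which restrains viral translation, averaged 57.1 ± 19.8 and 146 ± 84.1 CPM, at -1.33 ± 0.33 (edgeR adjusted p = 0.129). Irf9, the DNA-binding subunit of the main interferon-activated factor, was at -0.41 ± 0.17. The median was -0.78 in sham and -0.60 in olaparib tumours, and -0.33 with the cell line from the written label (2 members at an unadjusted p below 0.05). In the 12 tumours unirradiated by the written label, in written groups, the median was -0.10, with 28 of 31 below 0 and 0 at an unadjusted p below 0.05 in edgeR. By code DESeq2 called 12 of the 31 members and voom 14, all lower, where they called 1.49% and 1.96% of all tested genes lower. Without EO-703 edgeR called 6 members, among 90 of 15668 tested genes.

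**Figure D4:**
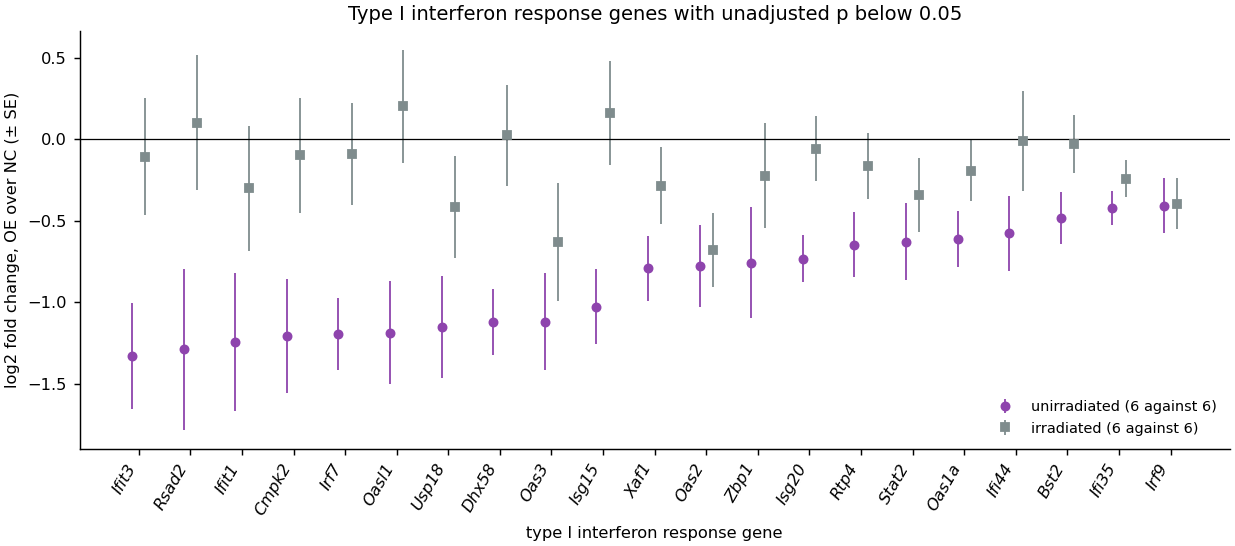
Log2 fold change of OE against NC with its SE for the 21 of 31 tested type I interferon response genes with an unadjusted p below 0.05 in unirradiated tumours, in unirradiated (circles) and irradiated (squares) tumours. All circles lie below 0, from -1.33 for Ifit3 to -0.41 for Irf9.

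The interferon-response element was searched as GAAANNGAAA on either strand in the promoter window of 250 bases before to 50 after each gene start (RefSeq, GRCm38.p6). It was found in 11 of the 23 list members with a promoter in that table (47.8%), in 8 of the 16 whose unadjusted p was below 0.05 (50.0%), and in 474 of 12041 tested genes (3.94%). The promoters of 4 members are shown, taken from those 8 with a match because their genes were also among the lowest of the list. Irf7 and Dhx58, named above, were not among the 8. The match is in capitals on the gene's strand, so that a match on the other strand reads TTTC first. A match is a stretch of letters and not evidence of binding.
Isg15 (chr4:156200877-156200906, minus strand): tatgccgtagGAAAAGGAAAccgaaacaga
Ifit3 (chr19:34583363-34583392, plus strand): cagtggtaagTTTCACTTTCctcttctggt
Ifit1 (chr19:34640775-34640804, plus strand): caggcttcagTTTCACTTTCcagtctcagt
Oas1a (chr5:120907526-120907555, minus strand): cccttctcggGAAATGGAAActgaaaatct

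Other immune genes lay on the same side in part. Antigen presentation and interferon gamma genes were below 0 in 32 of 33, with a median of -0.34 (-0.74 in sham and 0.11 in olaparib tumours, and -0.21 without S-759), and edgeR, DESeq2 and voom each called 0 of them. The class I genes H2-K1 and H2-D1 were at -0.41 ± 0.18 and -0.33 ± 0.13. T cell markers were below 0 in 20 of 20 (median -0.38), with -1.06 in sham and 0.20 in olaparib tumours and -0.19 without ES-741, and their summed level was 127 to 660 CPM in OE and 226 to 559 CPM in NC. Cytotoxic cell markers were below 0 in 16 of 18 (median -0.54, and -0.20 without O-724), with Gzmb, a granule protease, at -0.93 ± 0.35. Macrophage and monocyte markers were at a median of -0.01 (0.16 without S-761), neutrophil markers at -0.17 and mast cell markers at -0.27 (-0.09 without S-759). Besides that of the macrophage and monocyte markers, single tumours set the sign of 3 medians. B and plasma cell markers were at -0.69 but at 0.13 without O-724, dendritic cell markers at -0.21 but at 0.0015 without O-724 and 0.02 without S-759, and the 2 eosinophil markers tested at 0.33 but at -0.43 without EO-703. Ly6c2, a marker of inflammatory monocytes, was at -1.45 ± 0.37 (edgeR adjusted p = 0.141). Whether these levels account for those of the interferon genes was not tested. NF-kB and acute inflammation genes were above 0 in 14 of 20 (median 0.10), and chemokine genes below 0 in 18 of 28 (median -0.09), with the B cell attractant Cxcl13 at -1.92 ± 0.67.

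Beyond Dpt, lists of matrix genes lay mostly above 0. Collagen genes were above 0 in 19 of 21, with a median of 0.39 and 8 members higher at an unadjusted p below 0.05, none of which passed with edgeR (DESeq2 and voom each called 3 higher, Col27a1 and Col7a1 among them). Col27a1, a fibrillar collagen, was at 36.0 to 58.2 CPM in OE and 9.52 to 31.9 CPM in NC, at 0.84 ± 0.24 without overlap (edgeR adjusted p = 0.17). Of all tested genes 0.972% lay higher in OE without overlap, and 12.7% had an unadjusted p below 0.05 in either direction. The summed level of the collagen genes was 9474 to 11960 CPM in OE and 5430 to 10960 CPM in NC. Without S-761 the median was 0.24. Fibroblast markers were above 0 in 14 of 19 (median 0.23, and 0.08 without EO-703), with Dpt the member that passed, and pericyte and smooth muscle markers in 9 of 11 (median 0.68), with Rgs5, a pericyte marker, at 1.09 ± 0.30 (edgeR adjusted p = 0.17). Endothelial markers were above 0 in 15 of 16 (median 0.26), with the cadherin gene Cdh5 at 0.45 ± 0.21. Most endothelial markers were higher in sham than in olaparib tumours, as Erg at 1.25 and 0.08 and Cdh5 at 0.55 and 0.34. Most fibroblast markers were too, as Postn at 1.05 and 0.05, while Pdpn was at -0.68 and -0.11. None of these differences between treatments passed with edgeR. TGF-beta and matrix response genes were above 0 in 17 of 27 (median 0.09), including the activin subunit Inhba at 0.65 ± 0.18. Metalloproteinases and their inhibitors were above 0 in 16 of 24 (median 0.14), with Mmp10 at 1.96 ± 0.47 (2.16 to 6.35 against 0.234 to 2.34 CPM, edgeR adjusted p = 0.119). The epithelial-mesenchymal transition list had 9 members above and 9 below 0 (median -0.0037), and with each tumour left out in turn the median ran from -0.098 to 0.12.

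Metabolic lists lay mostly below 0, without a gene that passed with edgeR (DESeq2 called Nqo1 and Gstm1 of the NRF2 list). Hypoxia and glycolysis genes were below 0 in 29 of 30, with a median of -0.38 and 13 members lower at an unadjusted p below 0.05. Over all tested genes 12.7% had such an unadjusted p in edgeR, in either direction, and 51.9% lay below 0. Pkm, pyruvate kinase, was at -0.43 ± 0.14, Pfkp, a phosphofructokinase, at -0.46 ± 0.15 and the lactate exporter gene Slc16a3 at -0.47 ± 0.15 (edgeR adjusted p from 0.224 to 0.241). The median was -0.23 without O-723. Cholesterol genes were below 0 in 22 of 23 (median -0.18, with -0.51 in sham and 0.06 in olaparib tumours), fatty acid synthesis genes in 14 of 16 (-0.13) and oxidative stress and NRF2 genes in 20 of 21 (-0.18), with Nqo1, a quinone reductase, at -0.39 ± 0.10. Most fatty acid synthesis genes were lower in sham than in olaparib tumours, as Acss2 at -0.59 and 0.01, while Me1 was at 0.24 and 0.17. Oxidative phosphorylation genes were below 0 in 18 of 23 (-0.08) and ribosomal protein genes in 19 of 23 (-0.09). Without S-761 the ribosomal median was 0.08 and the oxidative phosphorylation median 0.00019. The unfolded protein response was at a median of -0.02, immediate early genes at -0.0040, microRNA processing genes at 0.0064, apoptosis regulators at 0.05 and PI3K, MAPK and EGF receptor signalling genes at 0.03. Of these 5 medians only that of the apoptosis list kept its sign with each tumour left out. Birc2, an inhibitor of apoptosis, was at 0.45 ± 0.10 (edgeR adjusted p = 0.112).

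Markers of epithelium and of neighbouring tissue varied between single tumours. Squamous basal cell markers were below 0 in 12 of 17 (median -1.22, and -0.56 without S-761), with Krt16 at 0.126 to 2.07 CPM in OE and 0.936 to 11.3 CPM in NC. Keratinocyte differentiation markers had a median of -1.41 over 8 members and -4.61 without ES-741. The 3 simple epithelium markers were below 0 (median -0.60), and the single hair follicle marker tested, Padi3, was at -0.25 (0.05 without S-758). Skeletal muscle markers had a median of 1.11, with 3.54 in sham and -1.55 in olaparib tumours and 0.20 without S-761, beside a summed level of 143 to 1706 CPM in OE and 176 to 2096 CPM in NC. Adipocyte markers were at -0.41 but at 0.71 without O-724, Schwann cell and nerve markers at -0.12 but at 0.02 without S-761, erythroid markers at -0.09 but at 0.25 without S-761, and platelet markers at -0.52 (-0.04 without S-761). None of these markers passed with edgeR. DESeq2 called Krt16 lower, Lamb3 higher and Ttn higher, and voom called 8 squamous and keratinocyte markers lower and Ttn higher.

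Taken apart by treatment, the comparison passed few genes. In the 6 sham tumours 1 gene passed (0.00652%), the zinc finger gene Zfp930, at 1.13 ± 0.13 (edgeR adjusted p = 0.0249), and it was at -0.19 in olaparib tumours. Zfp930 was named after its values were seen. In the 6 olaparib tumours 1 gene passed (0.00652%), Fbln5, at -1.29, beside -0.70 in sham tumours. Unadjusted p-values below 0.05 numbered 3144 (20.5%) in sham and 1095 (7.14%) in olaparib tumours. The sham count was 0 without any 1 sham or OE olaparib tumour. The olaparib count was 0 in 7 of 12 fits with a tumour left out, 8 without O-724, 3 without S-761 and 2 without S-759. All 27 genes of the joint comparison had the same sign in both, which the lack of overlap between OE and NC tumours fixed in advance. The difference between the treatments was itself tested and gave 0 genes with edgeR, 2057 (13.4%) at an unadjusted p below 0.05 and 163 with DESeq2. Nos1, for example, was at 1.54 in sham and 2.12 in olaparib tumours, Crabp1 at -1.70 and -1.23.

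The irradiated tumours, 6 OE and 6 NC by code, gave the same comparison in tumours that share no sample with these 12. Here too the labels conflict, and written and coded groups differ for 19 of all 24 tumours. EIO-744 and EIO-749 are written as NC and IO-731 as OE. EIO-749, IO-728, EI-752 and EI-742 are written as unirradiated. Among the irradiated tumours EIO-744 stood apart: its 10 most abundant genes took 15.3% of reads, against 4.99% to 6.44% in the other 11. The tumour keratin gene Krt8 was at 0.285 CPM in EIO-744 and at 344 to 743 CPM in the other 5 irradiated OE tumours. Mki67 was at 21.6 CPM there against 167 to 335 CPM, and the fibroblast marker Postn at 2611 CPM against 38.4 to 114 CPM. EIO-744 thus differed in composition from the other irradiated OE tumours. Between irradiated OE and NC tumours 217 of 16560 tested genes passed (1.31%, with 0.755% higher and 0.556% lower), a count that ran from 9 without IO-726 to 2379 without EIO-744 and was 0 when the irradiated tumours were fitted alone (1956 at an unadjusted p below 0.05) and 989 with DESeq2. Of the 27 genes 22 had the same sign after irradiation. Of all tested genes 50% lay above 0 there, and the share whose sign matched in both comparisons is not given here. Ccn3 was the 1 gene of the 27 that also passed there, at 1.77 ± 0.41 (edgeR adjusted p = 0.0398), with 10.1 to 137 CPM in OE and 7.13 to 10.2 CPM in NC. The 137 CPM came from EIO-744, and the other 5 OE tumours reached 19.1 CPM. Without EIO-744 Ccn3 was at 0.79 ± 0.16 (edgeR adjusted p = 0.00536), and it passed in 4 of the 12 fits that left out 1 irradiated tumour. Dpt was at 1.88 ± 0.63 (edgeR adjusted p = 0.126), with 1595 CPM in EIO-744 and at most 62.9 CPM in the other OE tumours, and at 0.04 ± 0.27 without EIO-744. Cilp was at 1.58 ± 0.61 (edgeR adjusted p = 0.185) and at 0.89 ± 0.56 without it, Nos1 at 1.23 ± 0.42 (edgeR adjusted p = 0.129) and Ksr2 at 1.25 ± 0.46 (edgeR adjusted p = 0.156). Extl1, at -0.57 ± 0.47, Clcf1, at 0.59 ± 0.37, Wwc1, at 0.72 ± 0.50, Polm, at 0.22 ± 0.14, and Mir100hg, at 0.16 ± 0.24, had the opposite sign. Without EIO-744 19 of the 27 signs matched, and 7 of the 27 passed where 14.1% of all genes did, 6 with the unirradiated sign (Reep1, Ccn3, Fbln5, Ksr2, Gm40003 and Kcnh1) and Wwc1 with the other. With all 24 tumours none of the 27 passed the edgeR test of the difference between irradiated and unirradiated tumours. The interferon list had a median of -0.22 after irradiation, the collagen list 0.90 and the hypoxia list 0.21. Without EIO-744 these medians were -0.07, 0.21 and 0.25, and the hypoxia median was -0.0071 without EIO-749.

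**Figure D5:**
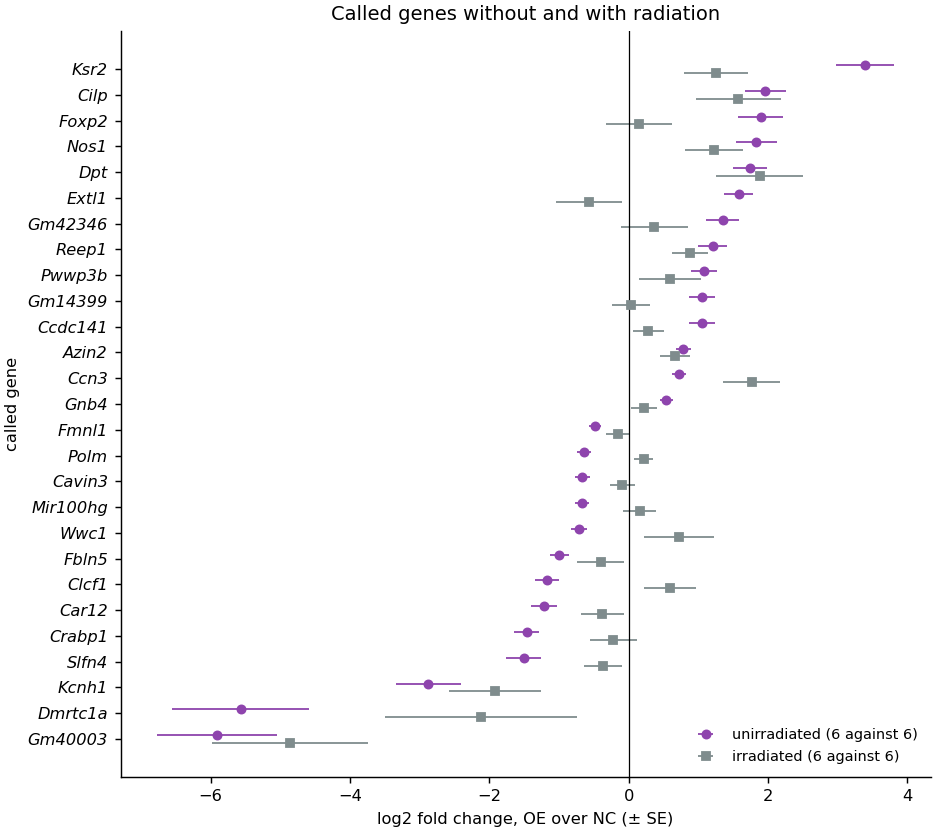
Log2 fold change of OE against NC, with its SE, for the 27 genes in unirradiated and in irradiated tumours. The signs match for 22 genes (19 without EIO-744), and Extl1, Clcf1, Wwc1, Polm and Mir100hg lie on opposite sides of 0.

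The difference itself passed for 1 gene of 16560 (0.00604%, with 1882 or 11.4% at an unadjusted p below 0.05, and 236 genes by DESeq2). Timp1, a secreted inhibitor of metalloproteinases (Entrez 21857, chrX:20870166-20874737), lay at 45.2 to 64.8 CPM in unirradiated OE and 60.9 to 93.2 CPM in unirradiated NC tumours. In irradiated tumours it lay at 117 to 223 CPM in OE and 51.2 to 119 CPM in NC. OE was thus on the low side without irradiation, at -0.43 (edgeR adjusted p = 0.141), and on the high side with it, at 1.27, a difference of 1.72 ± 0.25 (edgeR adjusted p = 0.0237). The count was 0 in 18 of the 24 fits that left a tumour out, 2 without EI-752, 12 without I-739, 23 without IO-728 and 593 without EIO-744.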

How the data were processed

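RNA from 24 whole tumours was sequenced. The submitters' processing notes name fastp, HISAT2, HTSeq and the build mm10, and versions, options, annotation and strand setting are not given in the sources used here, which leaves genes uncertain where they overlap, lie antisense or have near-identical copies. The table deposited by the authors holds raw read counts for 27368 genes, with no normalization. Columns were matched to tumours by their coded identifier, and groups were read from its letters.

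The 12 unirradiated tumours (37727884 to 39166017 counts each) were fitted with edgeR 4.0.16 in R 4.3.3, with TMM scaling, the filterByExpr filter (15336 genes kept), olaparib and cell line as terms and a quasi-likelihood F-test. Genes passed at a Benjamini-Hochberg adjusted p below 0.05. Sham, olaparib and their difference were contrasts of 4 group means, and the irradiated comparison and its difference came from all 24 tumours in 8 groups (16560 genes). Levels are TMM-scaled counts per 1000000 reads (CPM). Intervals on ratios of reads are exact and cover counting error only, and reads are not independent molecules. The lowest chi-square per gene over all 276 pairs of tumours was 13.6, so no pair differed by as little as sampling noise. Nothing in the labels says more of how replicates were raised than that they are separate tumours, so p-values measure only the spread between these samples.

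The members and the 49 lists (29 pathways and 20 sets of cell type markers) were chosen with earlier results of these data known. The table held 1034 of the 1052 list entries under the same symbol and 5 under an older one, 13 were missing, and 969 were tested. Named genes are up to 12 per direction with the largest change among genes at or above 1 CPM that passed or came next, all others that passed, up to 3 members of each list by p, and fixed genes of miR-21-5p targeting, end joining and proliferation. Positions and promoters come from RefSeq (26380 of the identifiers found) and 3' untranslated regions from GENCODE vM21, which gave a region for 13577 of 13797 tested protein-coding genes (98.4%).

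Alternatives were DESeq2 1.42.0 and its size factors, no filter, limma 3.58.1 voom with sample quality weights, all 24 tumours in 1 fit, no covariate, the written labels and leaving out each tumour. The procedure was tested on simulated data. Some genes of the lists are not reported here by name.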

Additional observations from a re-analysis of the deposited data

Results flagged for a closer look

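Summed marker levels were screened for a tumour far from the other 5 of its arm, by the ratio of its gap to the arm's whole range (Dixon's 95% critical value 0.625), over 40 combinations of list and arm. For normally distributed levels and independent groups chance picks about 1 in 20, and 11 were picked. The lists of an arm share the same tumours, so these groups are not independent. Keratinocyte differentiation markers summed to 56.6 CPM in ES-741, next to 17 CPM, and to 167 CPM in S-761, next to 33.8 CPM. In S-761 macrophage and monocyte markers summed to 17100 CPM, next to 11400 CPM. Erythroid markers summed to 489 CPM in ES-741, next to 182 CPM. EO-703 stood apart in 4 lists: simple epithelium markers at 425 CPM, next to 778 CPM, hair follicle and skin markers at 0.758 CPM, next to 0.332 CPM, B and plasma cell markers at 237 CPM, next to 136 CPM, and eosinophil markers at 6.82 CPM, next to 2.16 CPM. O-724 stood apart in 3 lists: simple epithelium markers at 685 CPM, next to 1270 CPM, skeletal muscle markers at 2100 CPM, next to 275 CPM, and adipocyte markers at 897 CPM, next to 272 CPM. The part of these tumours' composition in the genes that passed was not tested, beyond the fits that leave each tumour out.

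Timp1 was the 1 gene that edgeR called for a change of the OE to NC difference between irradiated and unirradiated tumours, by 1.72 on the log2 scale (edgeR adjusted p = 0.0237, a test of the difference itself). DESeq2 called 236 genes, and edgeR called 0 in 18 of the 24 fits that left a tumour out and 593 without EIO-744.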

How the results depend on the processing

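The 27 genes that passed kept their direction under other size factors (31 genes passed), DESeq2 in place of edgeR (409), all genes kept whatever their counts (51), voom with sample quality weights (544), all 24 tumours in 1 fit (1, Ksr2) and no olaparib covariate (45). As OE and NC tumours did not overlap in any of the 27, these settings could not readily reverse a direction. With each tumour left out the count ran from 0 to 90. It was 0 with the written cell line in the same 12 tumours (2 with DESeq2), in the 7 tumours whose labels agree on cell line (1395 at an unadjusted p below 0.05), in the 8 also unirradiated by the written label (1747), and in the 12 unirradiated by the written label (319). With the written cell line Kcnh1 reversed (0.0089 by edgeR and 0.0056 by DESeq2), and in the 12 unirradiated by the written label Reep1 (-0.18), Clcf1 (0.0033), Mir100hg (0.30), Fmnl1 (0.0019) and Gm14399 (-0.0066) did. Sham and olaparib tumours gave 1105 and 101 genes with DESeq2, 3 and 2 with no filter, 0 and 0 with all 24 tumours in 1 fit (2065 and 590 at an unadjusted p below 0.05), and 0 to 2 and 0 to 8 with 1 tumour left out. Their difference gave 163 genes with DESeq2 and 0 to 0 with 1 tumour left out. The irradiated count of 217 was 989 with DESeq2, 123 with no filter, 0 in the 12 irradiated tumours alone (1956 at an unadjusted p below 0.05), and from 9 without IO-726 to 2379 without EIO-744. The difference with irradiation was 236 with DESeq2 and 0 to 593 with 1 tumour left out. Matched minus unmatched seed genes (0.109) was -0.018 with the written cell line, 0.187 in the 8 tumours, -0.015 in the 12 written as unirradiated, 0.030 without S-761 and ES-741, and 0.0489 to 0.132 with 1 tumour left out. Of the 49 list medians 0 changed sign with other size factors, with DESeq2 or without the filter, 8 did with voom (neutrophils at 0.34 and eosinophils at -0.50 moved most), 11 without S-761, 12 without S-761 and ES-741, 13 in the 7 tumours whose labels agree on cell line, 21 with the written cell line and 22 in the 12 written as unirradiated. The cause of these shifts was not tested. The fits of the irradiated 12 alone, without that pair of tumours and of the written cell line with DESeq2 were chosen after seeing the data. No paired analysis was possible because the replicate numbers are tumour identifiers that no 2 groups share. Depth limits Gm40003 and Dmrtc1a, at 1 and 3 reads in OE tumours.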

Other observations

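Ksr2 and Nos1, both higher in OE tumours, are neighbours on chromosome 5, 98.8 kb apart. Around the 26 genes that passed and have a position, 313 entries for tested genes lay within 500 kb, of which 176 (56.2%) had the sign of the gene that passed and 28 an unadjusted p below 0.05. Of all tested genes 12.7% had such an unadjusted p in edgeR, and 48.1% lay above and 51.9% below 0. Ksr2 and Nos1 account for the 2 entries that passed. Of other genes beside the pair, Fbxo21, a ubiquitin ligase subunit, was at 0.12 and Fbxw8, another, at -0.06. Medians over all tested genes of a chromosome ran from -0.09 on chromosome 15 to 0.06 on chromosome 3.

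Genes just short of the threshold included Slc16a9, a carnitine transporter, at 1.22 ± 0.23 (edgeR adjusted p = 0.0561), Ankrd1, a stress-induced nuclear protein, at 1.00 ± 0.19 (edgeR adjusted p = 0.0573) and Tbrg1, a growth regulator, at -0.43 ± 0.08 (edgeR adjusted p = 0.0502). None of the 3 overlapped between OE and NC tumours, which was so for 1.79% of all tested genes.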
